A study of Mus musculus with 76 samples.

Results

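Acute phase proteins are plasma proteins whose production by the liver changes in infection, injury and inflammation. Interleukin-6, interleukin-1 and tumor necrosis factor drive their genes through transcription factors of the STAT, C/EBP and NF-κB families, and adipose tissue makes several of them as well. The 10 genes described here encode serum amyloid A proteins, which travel on high-density lipoprotein (*Saa1*, *Saa2* and *Saa3*), lipocalin-2, which sequesters iron-binding siderophores (*Lcn2*), the orosomucoids, which bind lipophilic molecules in plasma (*Orm1* and *Orm2*), the scavengers of free hemoglobin and heme (haptoglobin, *Hp*, and hemopexin, *Hpx*), and the alpha and beta chains of the clotting protein fibrinogen (*Fga* and *Fgb*). They were taken by gene symbol from the tables of normalized counts of both tissues. All 10 had a row among the 16775 entries of the liver table, and 7 had one among the 18964 entries of the adipose table. *Saa1*, *Fga* and *Fgb* were not analysed here in adipose tissue.

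The mice were females with free access to food. Fnip2C/C mice carry, in both copies of the 3′UTR of *Fnip2*, a T-to-C change made by CRISPR/Cas9 in C57BL/6 blastocysts, together with a nearby G-to-C change that disrupts the PAM. Fnip2T/T mice carry the ancestral T allele. RNA was measured in the livers of 5 Fnip2C/C and 5 Fnip2T/T mice and in the visceral white adipose tissue (WAT) of 4 Fnip2C/C and 5 Fnip2T/T mice, and 6 of the 13 mice gave both tissues. The libraries read poly(A) transcripts from the 3′ end, so that a longer transcript does not give more reads. Values are normalized counts, which are gene read counts divided by a size factor per library, and n counts mice.

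The total of reads per library was 4180209 to 6277644 in WAT and 5583041 to 7523200 in liver. Of the marker lists, 12 of 12 hepatocyte genes were detected and tested in liver and 10 of 10 adipocyte genes in WAT. The WAT library of Fnip2C/C mouse 593 stood apart, with 5593 reads per 1000000 reads (RPM) over 10 detected ovary genes against 10.5 to 30.2 in the other 8, so the members tested in WAT are also given without it. In WAT all Fnip2C/C libraries had even RNA label numbers and all Fnip2T/T libraries odd ones, so the number and the genotype cannot be told apart. In liver the labels cross the numbers with the genotype, but the liver table lists its even-numbered columns first, as the WAT table lists the Fnip2C/C ones. If the liver columns were placed by genotype too, their order would disagree with the labels. Genotypes were taken from the labels throughout, and every genotype value in liver, and the interaction, rests on them. Normalized counts of *Fnip2* itself were 22.8 ± 6.99 (SD, n = 4) in Fnip2C/C and 28.3 ± 10.6 (SD, n = 5) in Fnip2T/T WAT, and 155 ± 29.2 (SD, n = 5) and 104 ± 33.2 (SD, n = 5) in liver. Neither difference passed the test, with limma adjusted p-values of 0.580 and 1.00, and these levels do not show which allele a library carries.

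Promoters are shown first, because the members share a short sequence there. RefSeq promoters of the GRCm38.p6 build, from 250 bases before the transcription start to 50 bases from it, were given for 8 of the 10 members. *Orm1* and *Hp* had no entry. The C/EBP motif TTGCNNAA, searched on both strands, lay in 8 of these 8 promoters, and 10.8% of all 32851 promoters hold it. The windows below run 5′ to 3′ along the gene's own strand, with the match in capitals. In *Saa3* and *Fga* the motif reads on the opposite strand.

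*Saa1*, chr7:46743144-46743173, minus strand: ctgtgctcccaTTGCACAAtgagggagaat
*Saa2*, chr7:46751639-46751668, plus strand: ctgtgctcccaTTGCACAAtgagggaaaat
*Saa3*, chr7:46715757-46715786, minus strand: ggtaagtgggaTTATGCAAgatcaaacagg
*Lcn2*, chr2:32387937-32387966, minus strand: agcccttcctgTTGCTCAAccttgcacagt
*Orm2*, chr4:63362318-63362347, plus strand: gagagaacattTTGCGCAAgacatttccca
*Hpx*, chr7:105600298-105600327, minus strand: tggctggaaatTTGCTGAAgggggtagggg
*Fgb*, chr3:83049925-83049954, minus strand: ctgggaagatgTTGCTCAAatgataaagca
*Fga*, chr3:83026007-83026036, plus strand: gctacagagaaTTGAGCAAgagtttctggg

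The match began 182 bases before the start in *Saa1* and 183 bases before it in *Saa2*, within windows that are nearly the same. Those of *Saa3*, *Fgb*, *Orm2* and *Fga* began 99, 80, 120 and 135 bases before the start, and those of *Hpx* and *Lcn2* lay farther off, at 200 and 216 bases. The STAT motif TTCNNNGAA lay in the promoters of both fibrinogen genes and in none of the other 6, and 8.3% of all promoters hold it. These windows are shown for comparison with the C/EBP ones, which they do not overlap.

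*Fgb*, chr3:83050006-83050035, minus strand: gactcaatgaTTCGAGGAAccccctgtgtc
*Fga*, chr3:83025909-83025938, plus strand: aggcccccatTTCCTGGAAtgtagattccc

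The NF-κB consensus lay in 0 of the 8 windows, against 4.51% of all promoters, which says only that it was not found in these windows. A match to a motif is a description of the sequence and not a measured site.

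**Figure D1:**
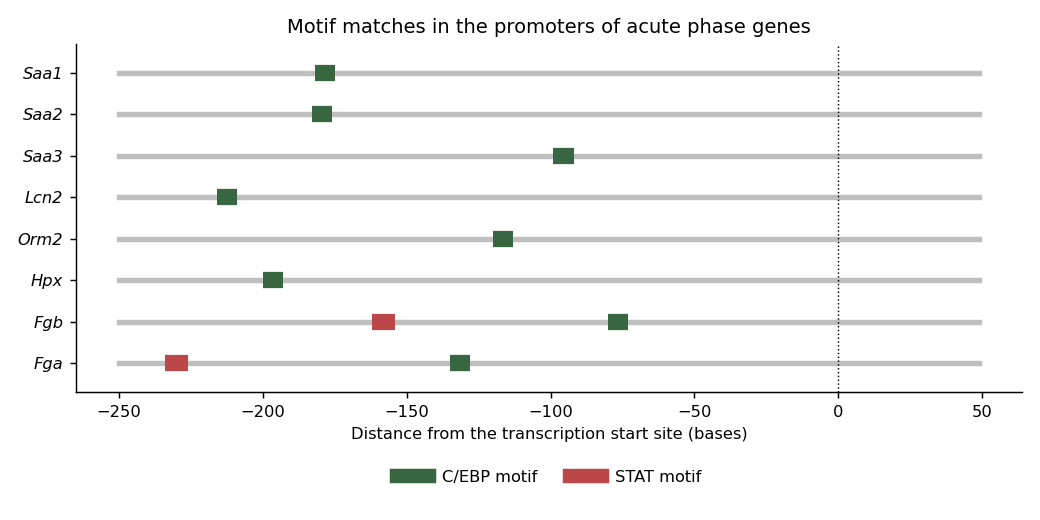
Position of each C/EBP motif (green) and STAT motif (red) in the promoters of 8 acute phase genes, with the distance from the transcription start site in bases on the x axis and 1 grey line per 300-base promoter. A green box lies before the start in every one of the 8 promoters, and red boxes lie in those of *Fgb* and *Fga* alone.

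In liver all 10 members were detected in every library. Levels are compared here in RPM, over the 10 livers and not divided by length, since reads come from the 3′ end. *Fgb* had the highest median, 7433 RPM, or 0.743% of all reads (range 0.497 to 0.970%). *Hpx* followed at 2874 RPM (2507 to 4896), below all values of *Fgb*. *Fga* had 1693 RPM (1286 to 2152), *Hp* 1440 (1171 to 2109) and *Orm1* 958 (797 to 1422). The ranges of these 3 neighbours overlapped, while that of *Fga* lay below that of *Hpx*. The inducible serum amyloids were far lower in these fed mice, at 54.7 (26.4 to 116) for *Saa1* and 36.2 (16.7 to 106) for *Saa2*. *Orm2* had 26.8 (19.9 to 43.1), within the range of *Saa2*. The lowest were *Saa3* at 7.12 (4.98 to 12.3) and *Lcn2* at 6.08 (4.29 to 14.9), which overlapped each other and lay below *Orm2*.

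WAT had a different order. *Hp* led with a median of 480 RPM over the 9 libraries (332 to 729), followed by *Orm1* at 310 (163 to 696), and the ranges of both overlapped. *Orm2* had 3.98 RPM (1.08 to 14.9) and *Saa3* 2.55 (1.38 to 13.4). *Hpx* (0.928), *Lcn2* (0.451) and *Saa2* (0) had the lowest medians. The tables were normalized separately, so liver and WAT are set side by side without a test. The liver median was 3.00 times that of WAT for *Hp*, 3.09 times for *Orm1*, 2.79 times for *Saa3*, 6.72 times for *Orm2* and 13.5 times for *Lcn2*. *Hpx*, the heme scavenger, stood far from them, with a liver median 3097 times that of WAT, where 1 to 6 reads were seen in a library.

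The high *Hp* and *Orm1* of WAT were read against markers of hepatocytes. Of 12 hepatocyte genes 6 had a row in the WAT table, and 2 passed the minimum for testing. Their sum was 33.9 to 129 RPM in Fnip2C/C and 174 to 701 in Fnip2T/T mice, and *Cyp2e1* made up most of it. Both tested genes fell, *Cyp2e1* with a log2 fold change of -1.92 and *Alb*, the albumin gene, with one of -1.68. Of all genes tested in WAT, 17% were called lower in Fnip2C/C mice. *Alb* had 29.3 to 116 normalized counts in Fnip2C/C and 133 to 257 in Fnip2T/T WAT. The other 4 hepatocyte transcripts with a row, *Ttr*, *Apob*, *Serpinc1* and *Ahsg* had at most 11, 8, 6 and 5 reads in any WAT library. *Hp* had 1539 to 3180 reads in the same libraries, and the part of hepatocyte RNA in its level was not tested.

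In WAT 1 of the 4 members tested was called between the genotypes, and 32.1% of all 12798 genes tested were called, 15.1% higher and 17% lower in Fnip2C/C mice. *Saa3*, which is made in adipose tissue and by macrophages, was higher in Fnip2C/C mice. Its normalized counts were 12.9, 58.0, 31.4 and 53.9 in Fnip2C/C mice 590, 593, 599 and 638. In Fnip2T/T mice 607, 608, 609, 657 and 658 they were 20.5, 7.78, 7.81, 5.95 and 8.34. Of the Fnip2C/C libraries 3 lay above every Fnip2T/T library, and the groups overlapped because mouse 590 lay below mouse 607.

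The mean of *Saa3* was 39.1 ± 21.0 (SD, n = 4) in Fnip2C/C and 10.1 ± 5.90 (SD, n = 5) in Fnip2T/T WAT, which is 3.88-fold higher. The log2 fold change, which is on the scale of log2 of the normalized count plus 1, was 1.78 ± 0.47 (SE), with a 95% confidence interval of 0.76 to 2.80 and an adjusted p of 0.0133 by limma with Benjamini-Hochberg adjustment over all genes tested. It was 1.52 without mouse 593, with a limma adjusted p of 0.0399. These counts rest on 6 to 62 reads per library, so counting error alone is wide. Among the mice numbered under 610 the mean was 34.1 (n = 3) in Fnip2C/C and 12.04 (n = 3) in Fnip2T/T, and among those numbered over 630 it was 53.9 (n = 1) and 7.14 (n = 2).

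Marker lists of several cell types were read in the same WAT libraries as *Saa3*, and some of them differed between the genotypes. The sum of the macrophage list, of which 11 of 12 genes had a row, was 611, 1452, 916 and 1175 RPM in Fnip2C/C mice 590, 593, 599 and 638, which is the order of their *Saa3* counts. In Fnip2T/T it was 985, 727, 989, 699 and 647 in mice 607, 608, 609, 657 and 658, and the groups overlapped. The Fnip2T/T mice did not follow their *Saa3* order. Mouse 658, with the lowest sum, had more *Saa3* (8.34 normalized counts) than mice 608, 609 and 657. Of the 10 macrophage genes tested, *C1qa* rose, with a log2 fold change of 1.06, while *C1qc*, *Adgre1* and *Cd68* fell by 1.70, 0.98 and 0.86 on the log2 scale. No defining macrophage marker with a row was at 0 in all libraries, which tells little, since it holds for 18957 of the 18964 WAT rows. Mesothelial sums were 95.6 to 281 in Fnip2C/C and 64.6 to 254 in Fnip2T/T, with 0 of 8 genes called. Fibroblast sums were 1826 to 3516 RPM in Fnip2C/C and 2389 to 3201 in Fnip2T/T mice, and of 8 genes 2 rose and 1 fell. T and B cell sums were 10.8 to 20.6 RPM in Fnip2C/C and 5.73 to 13.9 in Fnip2T/T mice, with 0 of 1 gene called. Of 10 adipocyte genes 0 rose and 6 fell, with a median log2 fold change of -1.10, and their sums were 17078 to 48376 RPM in Fnip2C/C and 24545 to 48874 in Fnip2T/T mice. Endothelial sums were 340 to 511 RPM in Fnip2C/C and 516 to 873 in Fnip2T/T mice. Neutrophil sums were 10.7 to 21.0 in Fnip2C/C and 21.7 to 52.0 in Fnip2T/T mice, without overlap in either list. Of the 5 endothelial genes tested 1 rose and 2 fell, and 0 of the 2 neutrophil genes tested were called. Over all genes tested in WAT, 32.1% were called, and the groups did not overlap for 26.1%. In bulk tissue, more cells of a type and more RNA per cell cannot be told apart, and the part of these cells in the *Saa3* difference was not tested.

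Haptoglobin was the member with the most reads in WAT, and its libraries were interspersed between the genotypes. Its normalized counts were 2129, 1440, 2594 and 3043 in Fnip2C/C mice 590, 593, 599 and 638, and 2122, 1587, 3550, 1848 and 2286 in Fnip2T/T mice 607, 608, 609, 657 and 658. The highest and second highest values were in different genotypes. *Hp* had a log2 fold change of 0.02 ± 0.27 (SE), with an interval of -0.57 to 0.60 and a limma adjusted p of 0.968, and it fell below 0 under several alternatives. Without mouse 593 it was 0.23, with a limma adjusted p of 0.537.

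*Orm1* counts in WAT ranged more widely, from 1127 to 3345 in Fnip2C/C and from 702 to 2684 in Fnip2T/T mice. The 2 lowest values, 743 and 702, were in Fnip2T/T mice 607 and 657, and the 2 highest were in mouse 599 of the Fnip2C/C group and mouse 609 of the Fnip2T/T group. For *Orm1* the log2 fold change was 0.58 ± 0.40 (SE), with an interval of -0.28 to 1.44 and a limma adjusted p of 0.286. With weights that count variable libraries less it was 1.11, with a limma adjusted p of 0.0411, and without mouse 593 it was 0.81, with a limma adjusted p of 0.157.

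*Orm2* counts were low in WAT, at 24.7, 4.68, 41.2 and 11.7 in Fnip2C/C mice 590, 593, 599 and 638, and 16.4, 23.3, 72.6, 13.9 and 16.7 in Fnip2T/T mice 607, 608, 609, 657 and 658. Mouse 609, highest for *Hp* as well, was highest by far, and mouse 593, with the ovary transcripts, was lowest for *Orm2* and *Hp*. *Orm2* had a log2 fold change of -0.53 ± 0.59 (SE), with an interval of -1.81 to 0.75 and a limma adjusted p of 0.515, and of -0.01 without mouse 593, with a limma adjusted p of 0.991. No tested member had groups that did not overlap, against 26.1% of all genes tested in WAT.

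The orosomucoid genes are near copies, and reads could be split among them. Over the last 300 bases of their GENCODE vM21 transcripts (GRCm38), *Orm1* and *Orm2* were 97.7% identical, and 58.6% of the 50-base stretches of *Orm1* there were found unchanged in *Orm2*. *Orm1* and *Orm3* were 91.3% identical, with 6.38% of such stretches shared. The ratio of *Orm2* to *Orm1* reads stayed between 0.0250 and 0.0311 in all 10 livers, while in WAT it ranged from 0.00415 in mouse 593 to 0.0270 in mouse 609. Whether reads of *Orm1* were counted for *Orm2* was not tested, and *Orm2* values stay uncertain where *Orm1* is abundant. *Saa1* and *Saa2* were 94.3% identical, with 9.56% of stretches shared, and *Saa1* and *Saa3* were 76.4% identical with 0 shared.

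The 3 remaining members with a WAT row stayed below the minimum mean count of 10 and are given by their values. *Saa2* had 32 reads in mouse 593, 1 read each in mice 590 and 657, and 0 in the other 6 libraries. *Lcn2* had 1 to 13 reads, with a normalized count of 9.85 in mouse 658 and 0.936 to 3.97 elsewhere. *Hpx* had normalized counts of 2.81 to 6.50 in Fnip2C/C and 0.973 to 5.58 in Fnip2T/T mice. When the minimum was lifted, limma adjusted p-values were 0.299 for *Saa2*, 0.629 for *Lcn2* and 0.353 for *Hpx*.

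**Figure D2:**
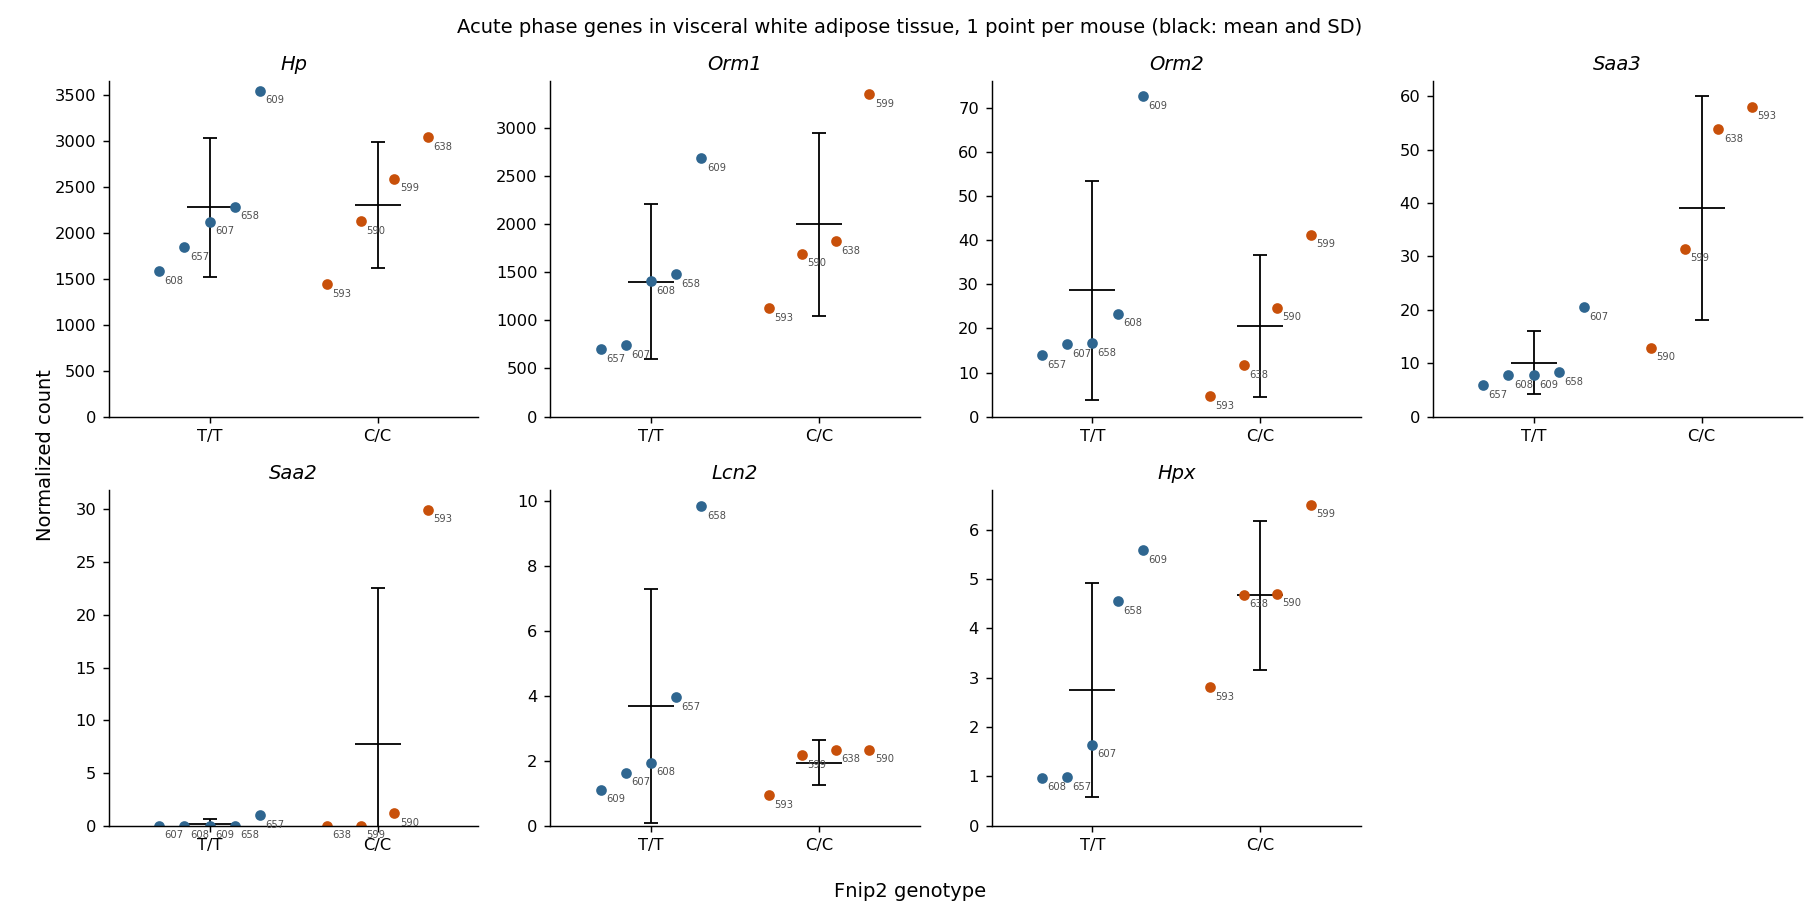
Normalized counts of the 7 members with a row in the WAT table, on the y axis of each panel, for Fnip2T/T (blue, n = 5) and Fnip2C/C mice (orange, n = 4), with 1 point per mouse, its number beside it, and the mean and SD in black. *Saa3* shows 3 Fnip2C/C mice above every Fnip2T/T mouse, and for the other members the genotypes overlap.

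In liver 0 of the 10 members were called, and 0% of all 11710 genes tested were called. At an unadjusted p under 0.05, limma counted 231 genes (1.97%), edgeR 269 and DESeq2 225, all with 0 called after adjustment. Of the members 3 had such a p by limma, and they were *Lcn2*, *Saa1* and *Saa2*. No member had groups that did not overlap, against 0.248% of all genes tested. The log2 fold change was below 0, so lower in Fnip2C/C mice, for 10 of 10 members and for 48.2% of all genes tested. The median over the members was -0.20, against 0.01 over all genes tested, and the members were measured in the same mice and are not independent. They were also chosen with earlier results of these data known, so these shares are given as a description. The signs of *Orm1*, *Orm2* and *Fga* changed when certain mice were left out.

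*Lcn2* had the lowest p of the members. Its normalized counts were 45.1, 34.4, 28.3, 36.2 and 31.7 in Fnip2C/C mice 590, 591, 592, 638 and 639, and 69.8, 70.7, 101, 32.9 and 69.6 in Fnip2T/T mice 607, 608, 657, 658 and 659. Of the Fnip2T/T livers 4 lay above every Fnip2C/C liver, and mouse 658 lay among them. The means were 35.1 ± 6.33 (SD, n = 5) and 68.9 ± 24.2 (SD, n = 5). The log2 fold change was -0.88 ± 0.24 (SE), with an interval of -1.39 to -0.38, an unadjusted limma p of 0.0018 and an adjusted p of 1.00. Across the alternatives the adjusted p of *Lcn2* lay between 0.310 and 1.00. Within mouse numbers under 610 the means were 35.9 (n = 3) and 70.3 (n = 2), and over 630 they were 33.9 (n = 2) and 67.9 (n = 3).

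*Saa1* counts were 284, 173, 321, 432 and 206 in Fnip2C/C mice 590, 591, 592, 638 and 639. In Fnip2T/T mice 607, 608, 657, 658 and 659 they were 370, 461, 468, 391 and 741. The highest Fnip2C/C value, in mouse 638, lay above the lowest Fnip2T/T values, in mice 607 and 658. *Saa1* had a log2 fold change of -0.81 ± 0.25 (SE), with an interval of -1.34 to -0.27, an unadjusted limma p of 0.00627 and an adjusted p of 1.00.

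*Saa2*, the neighbour of *Saa1* on the chromosome, followed it. Its counts were 244, 110, 230, 231 and 127 in the Fnip2C/C mice in the same order, and 348, 227, 271, 266 and 677 in the Fnip2T/T mice. Mice 591 and 639 had the lowest values of both genes, and mouse 659 the highest. The log2 fold change was -0.88 ± 0.34 (SE), with an interval of -1.63 to -0.13, an unadjusted limma p of 0.0259 and an adjusted p of 1.00. The ratio of *Saa2* to *Saa1* reads ranged from 0.494 to 0.941 over the livers.

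*Saa3*, higher in Fnip2C/C WAT, was 32.6 to 51.7 (median 45.1) in Fnip2C/C and 36.8 to 78.9 (median 48.7) in Fnip2T/T livers. Mice 657 and 659 lay above all Fnip2C/C livers, and the other 3 Fnip2T/T mice lay among them. The log2 fold change was -0.28 ± 0.21 (SE), with an interval of -0.72 to 0.16 and a limma adjusted p of 1.00.

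The remaining members had smaller differences. For *Hp* the livers had 9269 ± 888 (SD, n = 5) in Fnip2C/C and 10865 ± 2133 (SD, n = 5) in Fnip2T/T mice, and for *Hpx* 19501 ± 1566 (SD, n = 5) and 22698 ± 5916 (SD, n = 5). *Orm1* had 6394 ± 1047 (SD, n = 5) and 6978 ± 1767 (SD, n = 5), and *Orm2* 182 ± 38.8 (SD, n = 5) and 202 ± 59.0 (SD, n = 5). Their log2 fold changes lay between -0.21 for *Hp* and -0.11 for *Orm1*. The fibrinogen chains had the smallest of the members' log2 fold changes in size, at -0.10 for *Fgb* and -0.03 for *Fga*, with intervals of -0.44 to 0.24 and -0.32 to 0.25. The ratio of *Fgb* to *Fga* reads stayed between 3.50 and 4.91 over the 10 livers.

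**Figure D3:**
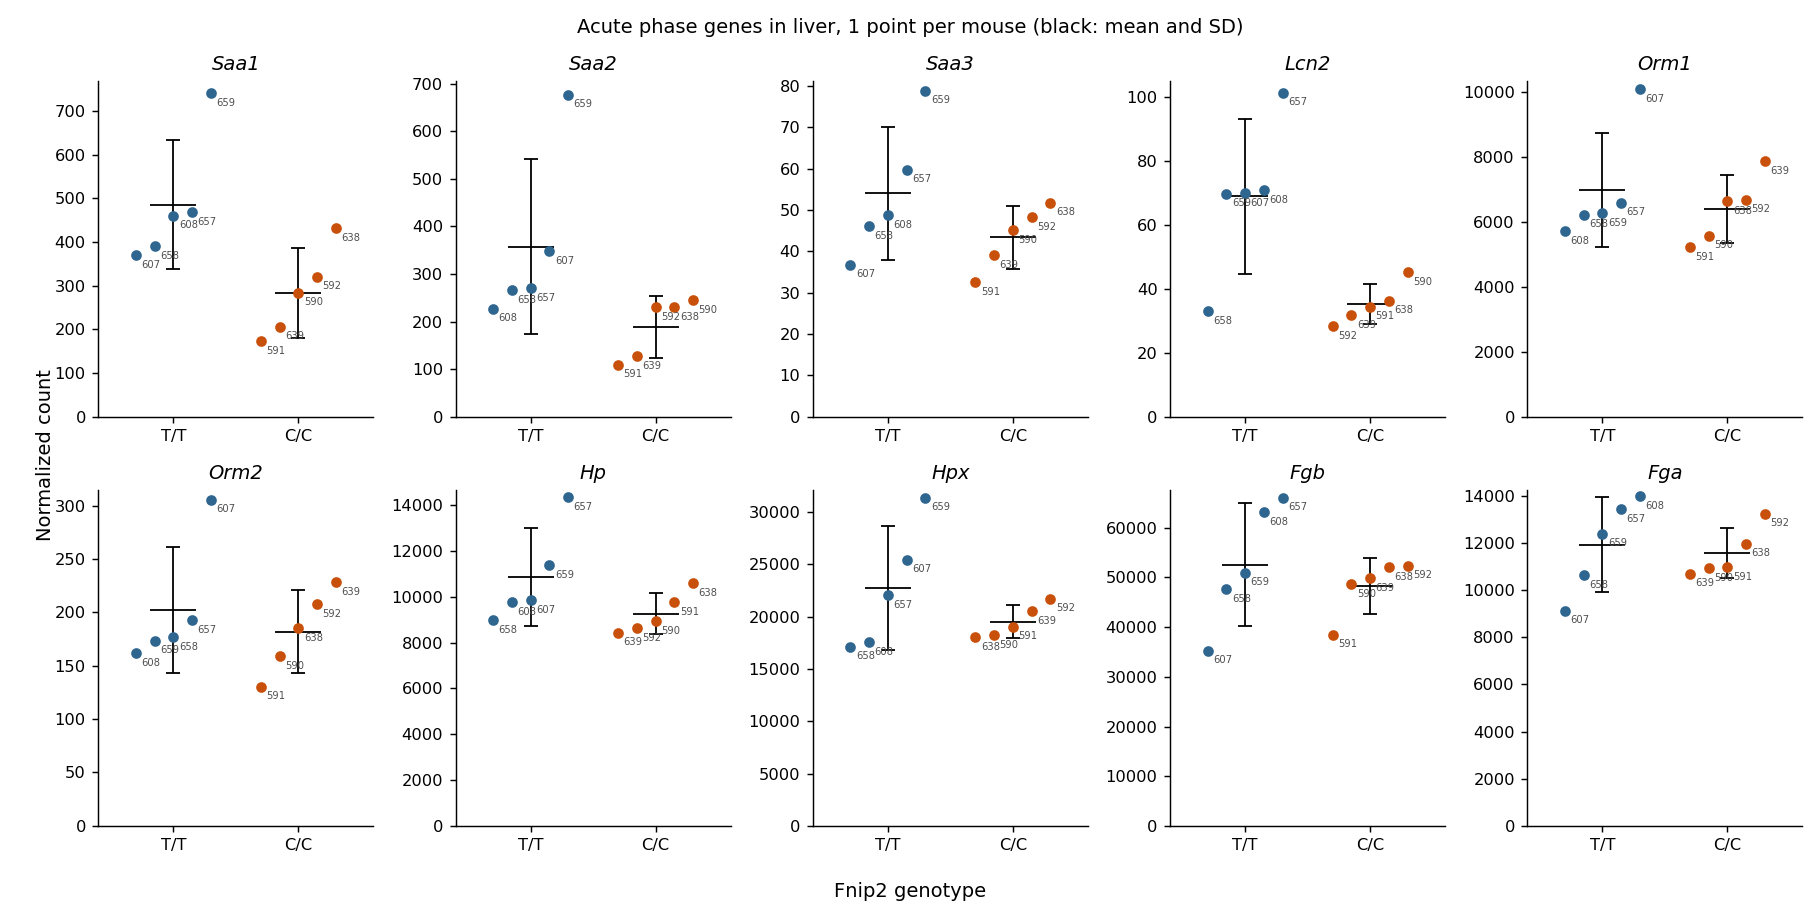
Normalized counts of the 10 members in liver, on the y axis of each panel from 0, for Fnip2T/T (blue, n = 5) and Fnip2C/C mice (orange, n = 5), with 1 point per mouse, its number beside it, and the mean and SD in black. *Lcn2* shows 4 Fnip2T/T mice near or above 70 normalized counts and 1, mouse 658, at 32.9 among the Fnip2C/C mice.

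The livers did not share a single order, and different mice led different genes. Fnip2T/T mouse 659 was highest for *Saa1*, *Saa2*, *Saa3* and *Hpx*, at 741, 677, 78.9 and 31342 normalized counts. Fnip2T/T mouse 657 was highest for *Lcn2*, *Hp* and *Fgb*, at 101, 14353 and 66027. Fnip2T/T mouse 607 was highest for *Orm1* and *Orm2*, at 10090 and 306, and lowest for *Fgb* and *Fga*, at 35241 and 9128. Fnip2C/C mouse 591 was lowest for *Saa1*, *Saa2*, *Saa3*, *Orm1* and *Orm2*.

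The sum of the neutrophil list stood out in 2 of these mice, mostly through *S100a8* and *S100a9*. Of 11 neutrophil markers 8 had a row in the liver table, and 0 of the 3 tested were called. Their sum was 68.2 RPM in mouse 657 and 62.9 in mouse 659, against 11.03 to 26.8 in the other 8 livers. *S100a8* had 250 and 202 normalized counts in mice 657 and 659, against 34.9 to 77.5 elsewhere. *S100a9* had 128 and 139, against 19.8 to 62.1. The defining markers *Ly6g*, *Csf3r* and *Cxcr2* had no row used here, and *Camp* had at most 5 reads. Without mouse 657 the log2 fold change of *Lcn2* was -0.73 and that of *Hp* -0.11. Without mouse 659 that of *Saa1* was -0.64 and that of *Saa2* -0.62. Whether these transcripts had a part in the member levels of mice 657 and 659 was not tested.

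**Figure D4:**
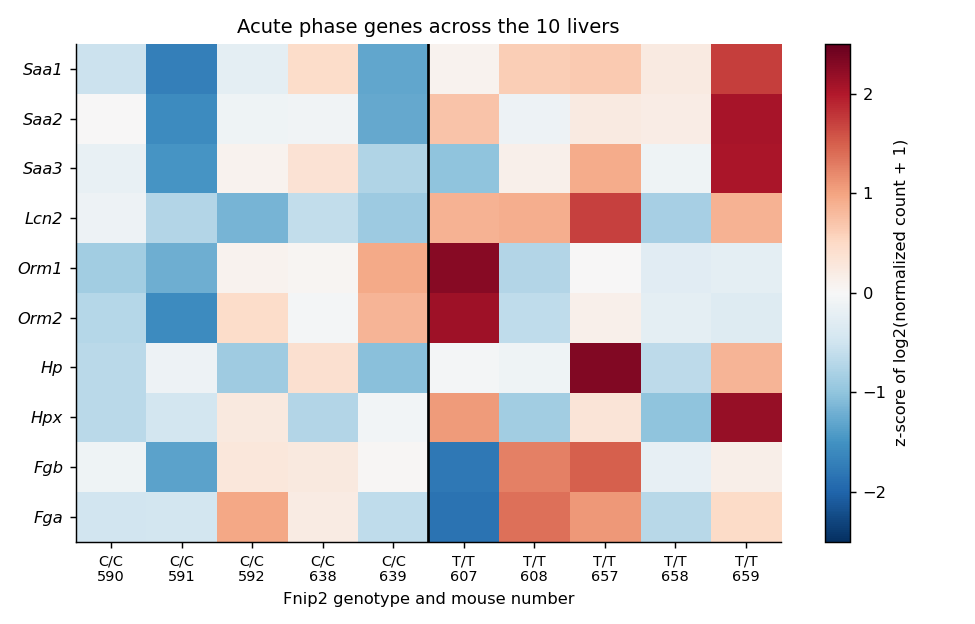
z-scores of log2(normalized count + 1) of each member (rows) over the 10 livers (columns, by genotype and mouse number), with red above and blue below a member's mean. Mouse 659 is red for the serum amyloids and *Hpx*, mouse 607 is red for *Orm1* and *Orm2* and blue for both fibrinogen chains, and mouse 591 is blue for most members.

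The spread among livers differed between the members. The SD within genotypes, on the log2 scale, stood at percentile 92.0 of all genes tested for *Saa2*, 82.9 for *Saa1* and 81.2 for *Lcn2*. It stood at 64.3 for *Orm2*, 63.8 for *Saa3*, 50.4 for *Fgb*, 49.1 for *Orm1* and 45.9 for *Hpx*, and *Hp* (25.9) and *Fga* (22.8) varied less than most genes. In WAT the members stood higher, at 96.1 for *Orm2*, 88.7 for *Saa3*, 86.3 for *Orm1* and 57.7 for *Hp*. The coefficient of variation was larger in Fnip2T/T than in Fnip2C/C mice for 9 of 10 members in liver and for 57.9% of all genes tested, and *Saa1* was the exception. It was larger in Fnip2T/T for 4 of 4 members tested in WAT, against 37.9% of all genes tested there.

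The genotype difference of *Saa3* differed between the tissues. The interaction contrast, the log2 fold change in WAT minus that in liver, was 2.06 ± 0.50 (SE) for *Saa3*, with an interval of 1.01 to 3.10 and a limma adjusted p of 0.00452. Of the 4 members in both fits 1 was called, and 29.2% of the 10404 genes tested were called. The contrast was 0.69 for *Orm1*, -0.39 for *Orm2* and 0.23 for *Hp*, with limma adjusted p-values of 0.257, 0.683 and 0.603. Each of these 3 intervals holds 0. With the mouse as a block 26.5% of genes were called, and the contrast was 2.10 for *Saa3*.

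**Figure D5:**
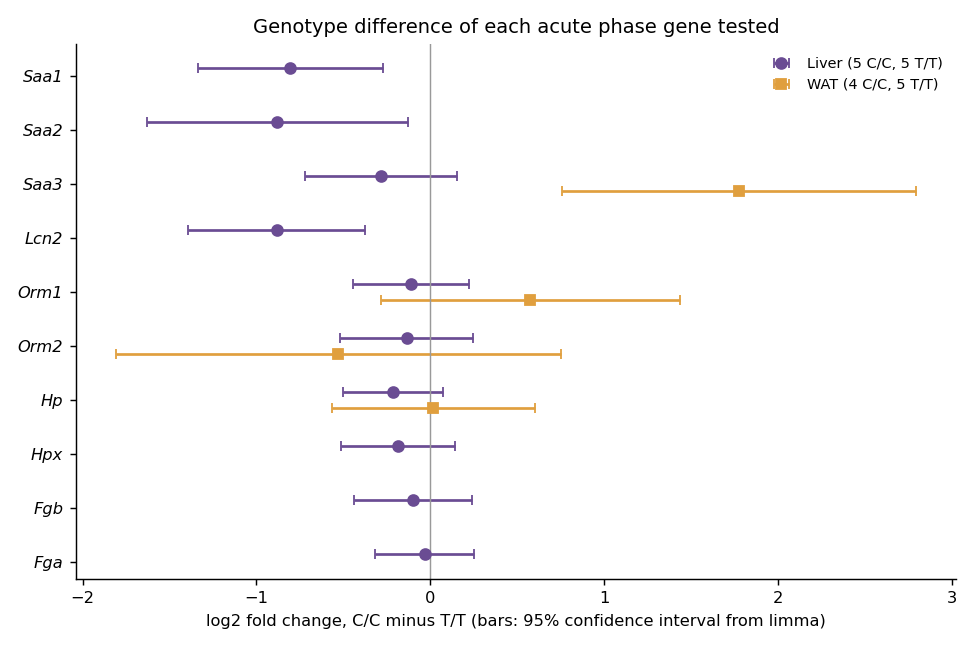
Log2 fold change (x axis, Fnip2C/C minus Fnip2T/T) of each member (y axis) in liver (purple circles) and WAT (yellow squares), with 95% confidence intervals from limma as bars. All 10 liver points lie left of 0, and the WAT interval of *Saa3* (0.76 to 2.80) lies to the right of 0 and of its liver interval.

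For some members the mouse with the highest level in liver ranked low in WAT. Mouse 607 had the highest liver *Orm1* (10090) and the second lowest WAT *Orm1* (743). Mouse 657 had the highest liver *Hp* (14353) and a WAT *Hp* of 1848, lower than in 6 of the other 8 mice. With 6 mice in both tissues, of 2 genotypes, no correlation was computed.

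The genes around the members were counted from hand-written lists. Of the other positive acute phase genes 20 of 41 were tested in WAT, and 2 rose, 4 fell and 14 were not called, with a median log2 fold change of -0.03. These 6 calls among 20 genes are near the 32.1% called over all genes. *Orm3*, the third orosomucoid gene, rose from 326 ± 121 (SD, n = 5) to 637 ± 159 (SD, n = 4) normalized counts, a log2 fold change of 1.01 with a limma adjusted p of 0.0140. *C3*, the central complement component, rose by 0.84. Those that fell included the protease inhibitor *Serpina3n* (-1.74), the complement gene *C4b* (-0.91) and the lipopolysaccharide-binding protein gene *Lbp* (-1.42). Of the negative acute phase genes, which fall in inflammation, 7 of 14 were tested, and 3 fell: *Alb* for albumin (-1.68), the growth factor gene *Igf1* (-0.71) and *Mup3* (-1.71), of a family of near-identical genes.

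Among genes of interleukin-6, interleukin-1 and TNF signaling 32 of 46 were tested in WAT, and 2 rose and 6 fell, a share of calls below the 32.1% over all genes. *Nfkbia*, which encodes an inhibitor of NF-κB, the C/EBP factor gene *Cebpd* and the adaptor gene *Myd88* fell, with log2 fold changes of -2.14, -2.25 and -1.17, while the kinase gene *Irak1* and the phosphatase gene *Ptpn11* rose by 0.64 and 0.68. *Cebpd* and *Cebpb* encode factors that bind the motif printed above, and *Stat3* one that binds the STAT motif. *Cebpb* (-0.81) and *Stat3* (-0.68), named after their values were seen, were lower with limma adjusted p-values of 0.0412 and 0.0167.

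Genes for the cargo of the scavengers also moved in WAT. Of 13 genes for hemoglobin chains and heme handling, all tested, 1 rose and 7 fell, with a median log2 fold change of -1.73. Over all genes tested in WAT, 15.1% were called higher and 17% lower, which also applies to the receptor list below. *Hbb-bs*, a beta globin gene of red blood cells, had 962 ± 168 (SD, n = 4) normalized counts in Fnip2C/C and 6023 ± 779 (SD, n = 5) in Fnip2T/T mice, a log2 fold change of -2.65. *Hba-a1* (-3.16), one of a pair of near-identical alpha globin genes, and the heme oxygenase gene *Hmox2* (-1.89) fell as well, and *Hmox1*, the inducible heme oxygenase gene, rose by 0.85. *Hp*, which binds hemoglobin, differed by 0.02 in the same libraries. Of the receptors of serum amyloid A and lipocalin-2, 7 of 10 were tested, and 1 rose and 2 fell. The lipocalin-2 receptor gene *Slc22a17* fell by 1.61, *Tlr4* fell by 1.18 and the endocytic receptor gene *Lrp2* rose by 1.25. Of 16 coagulation genes 2 were tested in WAT, *F5* (0.24) and *Pros1* (-0.09), and 0 were called, with 0 at an unadjusted limma p under 0.05.

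In liver none of these lists held a called gene by limma. Of 37 other positive acute phase genes tested, 0 had an unadjusted p under 0.05, and the lowest p-values were those of the metallothionein genes *Mt2* (log2 fold change -1.97, p 0.0510) and *Mt1* (-1.37, p 0.0607). Among 14 negative acute phase genes 1, *Mup3* (0.62, p 0.0433), had one, followed by *Rbp4* (0.18). Among 37 signaling genes 1, *Nfkbia* (0.39, p 0.0290), had one, followed by *Socs3* (-0.84), which encodes a feedback inhibitor of interleukin-6 signaling. Among 5 receptor genes 1, *Slc22a17* (0.66, p 0.0449), had one, followed by *Cd36* (-0.26). The 13 heme genes, led by *Blvrb* (0.25) and *Fth1* (0.17), and the 16 coagulation genes, led by *F13b* (0.17) and *Serpinc1* (0.09), had 0.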

How the data were processed

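RNA of 19 libraries (76 labelled runs, 4 per mouse) was made into QuantSeq 3′ mRNA-Seq FWD libraries for Illumina sequencing, from 250 ng (liver) or 500 ng (WAT) of RNA. The submitters' processing notes name FastQC 0.11.9, HISAT2, SAMtools 1.12, HTSeq, DESeq2 and GRCm39, and the annotation is not given in the sources used here. The authors deposited 1 table per tissue, whose signal is the read count of a gene divided by a size factor per library. All values (100%) were whole multiples of the library's step, within 1e-06 of a whole read, which gave back reads. Intervals are for the difference between the group means, with a width that rests on the spread between mice. Reads carry no molecular identifiers, so a low count is uncertain. The WAT table holds 1 column that no label describes, which was not used.

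A gene was tested in a tissue where its mean value reached 10 there, as log2(normalized count + 1) with limma 3.58.1 in R 4.3.3 (trend and robust options) and Benjamini-Hochberg adjustment over all of them. An adjusted p under 0.05 was a call. The interaction was fitted over all libraries. Mouse numbers pair the tissues because they are the same animals in 6 cases, and the consensus correlation within a mouse was -0.114. Alternatives were other pseudocounts (0.5, 10) and minimums (none, 50), other scalings, library weights, edgeR 4.0.16 and DESeq2 1.42.0 on the recovered reads, a term for mouse numbers, the mouse as a block and each mouse left out. A term for even against odd RNA label numbers in liver was chosen after seeing the data. The fits were tested on simulated counts with planted differences, drawn independently for each library. The simulation held no shared mice and no library set apart by ovary transcripts, so it does not cover these features. The members and lists were chosen with earlier results of these data known. Named were the members, *Fnip2*, up to 3 called genes per list and direction with the lowest p (the 2 with the lowest p where none was called), and the 5 genes most like the members. Paralogs were aligned with Biopython 1.88.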

Additional observations from a re-analysis of the deposited data

Results flagged for a closer look

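Of 34 groups of 4 or 5 libraries, 1 per member, tissue and genotype, 10 held a library far from its group by Dixon's test. The test flags about 1 in 20 for independent, normally distributed values. Some groups here rest on few reads, and the members were measured in the same mice. The 10 flags therefore cannot be set against that rate and are given as a description. In liver, Fnip2T/T mouse 659 stood above its group for *Saa1* (741 normalized counts, next 468) and *Saa2* (677, next 348), which lie side by side and share part of their sequence. Fnip2T/T mouse 607 stood above its group for *Orm1* (10090, next 6590) and *Orm2* (306, next 193), which share most of their 3′ end. Fnip2C/C mouse 591 stood below its group for *Fgb* (38451, next 48599).

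In WAT, Fnip2T/T mouse 607 stood above its group for *Saa3* (20.5, next 8.34) and Fnip2T/T mouse 609 for *Orm2* (72.6, next 23.3). Fnip2C/C mouse 593, the library with ovary transcripts, stood above its group for *Saa2* (29.9, next 1.18) and below it for *Lcn2* (0.936, next 2.17). A single read set Fnip2T/T mouse 657 apart for *Saa2* (0.992, others 0). Values of *Saa2* and *Lcn2* in WAT rest on few reads.

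The genotype difference of *Saa3* was larger in WAT than in liver by 2.06 on the log2 scale, with a limma adjusted p of 0.00452 for the interaction.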

How the results depend on the processing

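*Saa3* in WAT kept its direction and its call in all 18 alternatives that tested it, with log2 fold changes of 1.21 to 2.22 and limma, edgeR or DESeq2 adjusted p-values of up to 0.0476. A minimum mean of 50 left it untested, so that 0 members were called in WAT and 0 in the interaction, and library weights called 2 in WAT, with *Orm1*. With each mouse left out, 1 member was called in WAT and in the interaction, and 0 in liver. With the mouse as a block, the interaction of *Saa3* was 2.10 (limma adjusted p of 0.00541), 1 member was called, and no other call changed.

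In liver 0 members were called under any of 21 alternatives. Members at an unadjusted p under 0.05 numbered 3 in all but those without mouse 591, 639 or 607, with 2. The signs of small differences changed. *Hp* in WAT was -0.20 with quantile normalization, -0.059 with libraries scaled to the same total, -0.0099 with edgeR and -0.13 to 0.23 with a mouse left out. *Orm2* in WAT was 0.28 with library weights. *Fga* in liver was 0.022 with the term for even against odd RNA label numbers and -0.12 to 0.031 with a mouse left out. Without mouse 607, *Orm1* and *Orm2* in liver turned (ranges -0.19 to 0.031 and -0.22 to 0.023), and without 593 or 609 so did *Orm2* in the interaction (-0.84 to 0.13). The causes were not tested. Depth limits *Saa3*, *Orm2*, *Saa2*, *Lcn2* and *Hpx* in WAT.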

Other observations

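The genes whose pattern over the 10 livers was most like the mean of the members' z-scores were *Vps33b* (Pearson r 0.96), *Colec11* (0.92), *Asb1* (0.91), *Zfp90* (0.90) and *Pold3* (0.90). Over the 9 WAT libraries, with 4 members, they were *4930402H24Rik* (0.97), *Gm43112* (0.95), *Zfp423* (0.94), *Zfp979* (0.93) and *Vegfb* (0.93). These correlations are the highest of many computed, over libraries that share 2 genotypes, and are given as a description.

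Metallothioneins, which bind metal ions and rise with glucocorticoids and inflammation, had their highest liver values where *Saa1* and *Saa2* did. *Mt1* and *Mt2* had 13547 and 3884 normalized counts in Fnip2T/T mouse 659. Over the other 9 livers *Mt1* ranged from 660 in Fnip2C/C mouse 591 to 4255 in Fnip2T/T mouse 607, and *Mt2* from 115 in Fnip2C/C mouse 638 to 1348 in mouse 607. Mouse 591 was lowest for *Saa1* and *Saa2*, while mouse 638 had the highest *Saa1* of the Fnip2C/C livers. Mouse 657, highest for *Lcn2* and *Hp*, had 9863 normalized counts of *Lrg1*, a secreted glycoprotein gene of the positive acute phase list, against 3357 to 4826 elsewhere. These genes were singled out after their values were seen.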
